A study of Caenorhabditis elegans with 6 samples.

Results

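The genes described here belong to 2 enzyme families of the nematode Caenorhabditis elegans, the cytochrome P450 genes, named cyp, and the UDP-glycosyltransferase genes, named ugt. They were taken by name and gene type alone: each protein-coding gene whose name is cyp or ugt followed by a plain family code. This gave 75 cytochrome P450 and 66 UDP-glycosyltransferase genes, 141 of the 22389 genes with counts. The 3 tested libraries came from linc-4 animals, adults of the N2 background in which CRISPR deleted linc-4, a gene for a long intergenic non-coding RNA. The other 3 came from N2 wild type adults, and both groups grew on solid medium. Polyadenylated RNA was sequenced, and the series is about such RNAs in the germline and about somatic growth. The labels do not say whether the deletion is represented by 1 line or several, nor whether libraries came from separate cultures, so p-values measure only the spread between these libraries.

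Cytochrome P450 enzymes are heme monooxygenases that put oxygen onto small, mostly fat-soluble molecules, and they draw electrons from a shared reductase. UDP-glycosyltransferases join a sugar to such molecules, which makes them easier to export, so the families are often described as successive steps of detoxification. Both also act on the animal's own lipids, hormones and pigments, and in C. elegans much of this chemistry takes place in the intestine.

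Total counts ran from 6560089 to 12790323 in linc-4 libraries and from 3736372 to 7428665 in wild type libraries. The deleted gene had 5, 1 and 1 reads in linc-4 1 to 3, against 193, 345 and 234 reads in wild type 1 to 3. Of 14 oocyte and eggshell markers, all tested, 13 fell in linc-4, and their summed level was 2776 to 2873 CPM (reads per 1000000 reads of the scaled library) in linc-4 libraries and 3976 to 4917 CPM in wild type libraries. Of 9 tested sperm markers 5 rose and none fell, with sums of 236 to 290 CPM in linc-4 and 123 to 192 CPM in wild type. Of 12 tested intestine markers 2 rose and 1 fell, and the sums overlapped, with 2711 to 3100 CPM in linc-4 and 2217 to 3055 CPM in wild type. Of 8 epidermis markers 1 rose and none fell, with overlapping sums of 940 to 1028 CPM in linc-4 and 980 to 1265 CPM in wild type. No marker in these lists was at 0 reads, and the part of the germline markers in the results below was not tested. In RNA from whole animals, fewer cells of a type and less RNA per cell cannot be told apart.

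Both families held members that rose and members that fell in linc-4. Among called members the largest rises were those of cyp-37B1, at 4.34-fold, and ugt-18, at 6.13-fold on few reads, a value that depended on the method. The largest falls were those of ugt-19, which was 2.71-fold lower in linc-4, and cyp-33C8, which was 2.53-fold lower. A gene counts as called when limma-voom gave a Benjamini-Hochberg adjusted p under 0.05 over all 13778 tested genes. Among 51 tested cytochrome P450 genes 6 rose and 3 fell, 17.6% called, and among 47 tested UDP-glycosyltransferase genes 6 rose and 8 fell, 29.8% called. Over all tested genes 18.7% were called, 11.5% higher and 7.18% lower. The share of called cytochrome P450 genes was thus near that of the whole table, and the higher share among the UDP-glycosyltransferase genes lay on the falling side, at 17.02% lower beside 12.8% higher. No test was made of the difference between the families.

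The counts rest on small groups of libraries. With linc-4 replicate 2 left out 5 cytochrome P450 and 6 UDP-glycosyltransferase genes were called, and with wild type replicate 3 left out the counts were also 5 and 6. Without wild type replicate 1 they were 5 and 9, without linc-4 replicate 1 they were 7 and 9, and without wild type replicate 2 they were 12 and 14. Calls over the whole table moved too, from 2580 of 13778 tested genes in the main fit. They were 947 of 14174 without linc-4 replicate 2 and 1715 of 13959 without linc-4 replicate 1, and ran from 947 to 2848 over all 6 such fits. Across these 6 fits, 5 to 12 cytochrome P450 and 6 to 14 UDP-glycosyltransferase genes were called. Those called in all 6 such fits were cyp-37B1, cyp-33C5, cyp-34A9 and cyp-33C8, 4 of the 9 cytochrome P450 genes, and ugt-18, ugt-19, ugt-16, ugt-62 and ugt-61, 5 of the 14 UDP-glycosyltransferase genes. Those 9 genes were also called under every other scaling, filter and model tried and in the authors' deposited table; with a minimum log2 fold change of 1, ugt-61 alone of them dropped out.

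**Figure D1:**
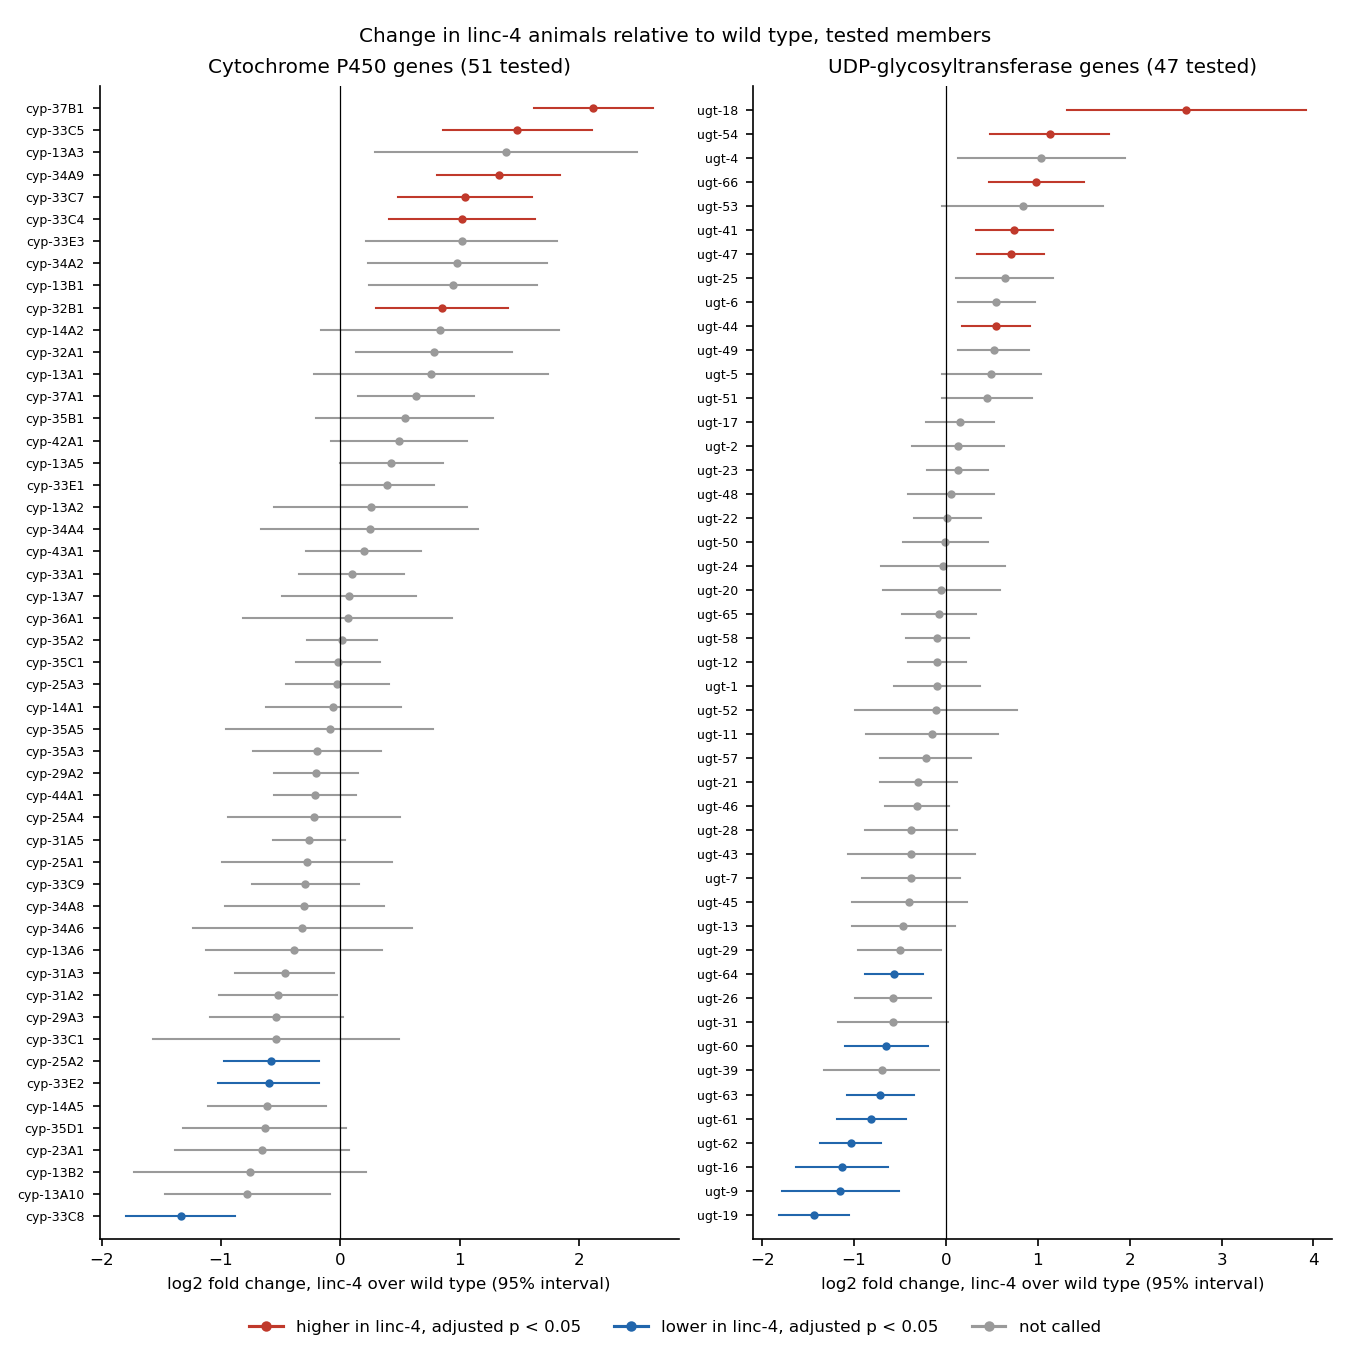
Fitted log2 fold changes, linc-4 over wild type, of the 51 tested cytochrome P450 genes and the 47 tested UDP-glycosyltransferase genes; lines are 95% intervals and colours mark the call. Members spread on both sides of 0 in each family, from -1.34 to 2.12 for cyp and from -1.44 to 2.62 for ugt.

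The median log2 fold change was -0.020 over the tested cytochrome P450 genes, 25 of them positive and 26 negative, and -0.10 over the tested UDP-glycosyltransferase genes, 18 positive and 29 negative. Over all tested genes it was -0.015. Upper-quartile scaling raised the median of all tested genes by 0.11 and turned both family medians positive, to 0.090 and 0.013. The split of calls moved with it, to 9 higher and 1 lower cytochrome P450 genes, 9 higher and 7 lower UDP-glycosyltransferase genes, and 2065 higher and 476 lower genes over the table. All 3 linc-4 libraries lay above or below all 3 wild type libraries for 20 cytochrome P450 genes, 14 above and 6 below. The same held for 23 UDP-glycosyltransferase genes, 9 above and 14 below, and for 38.9% of all tested genes. All 23 called members were among these, which is no separate evidence, since they were called on the same libraries.

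Summed over its 75 genes, the cytochrome P450 family reached 647, 610 and 598 CPM in linc-4 1 to 3, against 633, 646 and 712 CPM in wild type 1 to 3. The groups overlapped, with means of 618 ± 25.6 CPM in linc-4 and 664 ± 42.2 CPM in wild type (SD, n = 3 each). With median-of-ratios scaling they did not overlap, at 598 to 638 CPM in linc-4 and 642 to 713 CPM in wild type. The -45.2 CPM between the means of 618 and 664 CPM was a net of changes in both directions. The largest were -44.3 CPM for cyp-31A2, which was not called, 20.8 CPM for cyp-37B1 and -15.8 CPM for cyp-33C8. Without the 3 cyp-31A genes the sums were 448, 440 and 434 CPM in linc-4 and 397, 444 and 419 CPM in wild type, again overlapping; with upper-quartile scaling they did not, at 451 to 470 CPM in linc-4 and 382 to 420 CPM in wild type.

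The 66 UDP-glycosyltransferase genes summed to 709, 692 and 689 CPM in linc-4 1 to 3, against 779, 780 and 785 CPM in wild type 1 to 3. Here the groups did not overlap, nor did they with median-of-ratios scaling (689 to 699 CPM in linc-4 and 780 to 790 CPM in wild type), with means of 697 ± 10.8 CPM in linc-4 and 781 ± 3.59 CPM in wild type (SD, n = 3 each). The -84.7 CPM between the means was also a net of changes in both directions. The largest falls were -40.6 CPM for ugt-62, -28.2 CPM for ugt-19 and -15.97 CPM for ugt-64, and the largest rise was 13.8 CPM for ugt-44. Leaving out ugt-62 and ugt-19, a pair chosen after the values were seen, gave overlapping sums of 657, 635 and 636 CPM in linc-4 and 647, 664 and 663 CPM in wild type. With upper-quartile scaling the full sums overlapped as well, at 713 to 744 CPM in linc-4 and 737 to 770 CPM in wild type, and the cytochrome P450 mean was then higher in linc-4, at 643 CPM against 639 CPM in wild type.

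**Figure D2:**
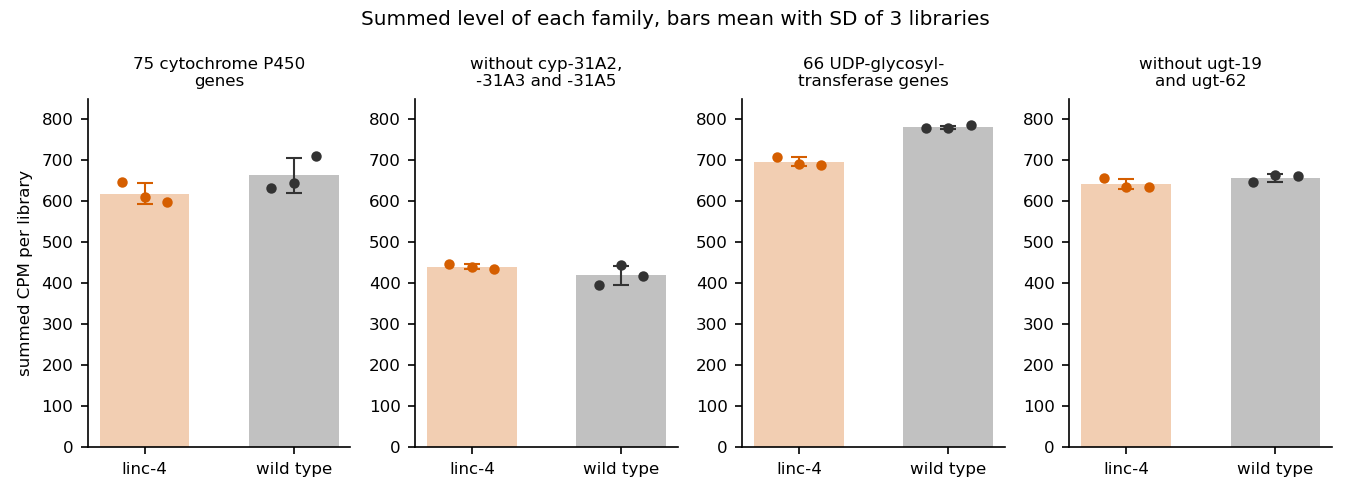
Summed level of each family per library in CPM; points are libraries, bars the mean and error bars the SD of 3. The linc-4 libraries lie below the wild type ones for the UDP-glycosyltransferase family (689 to 709 against 779 to 785 CPM), and overlap them once ugt-19 and ugt-62 are left out.

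Levels between genes were compared per kb of exon. The highest member in both groups was cyp-31A2, with 59.6 CPM per kb in linc-4 and 86.7 CPM per kb in wild type. After it by wild type level came cyp-31A5 with 35.1 in linc-4 and 42.2 in wild type, cyp-35A2 with 36.9 and 36.6, cyp-31A3 with 19.7 and 26.9, and cyp-44A1 with 18.2 and 21.1. Among the UDP-glycosyltransferase genes the wild type order was led by ugt-62, with 22.7 CPM per kb in linc-4 and 46.7 in wild type, and ugt-22, with 38.1 in linc-4 and 37.8 in wild type. Next were ugt-58 with 26.5 in linc-4 and 28.1 in wild type, ugt-64 with 18.5 and 27.5, and ugt-19 with 9.49 and 26.2. In linc-4 animals ugt-22 thus stood above ugt-58 and ugt-62. By this wild type order none of the 5 highest cytochrome P450 genes was called, and 3 of the 5 highest UDP-glycosyltransferase genes fell. Ranking by wild type level favours genes that are lower in linc-4, so the 2 families cannot be contrasted by it. Outside these 5, ugt-44, which rose, had 24.2 CPM per kb in linc-4, above ugt-62, and 16.7 in wild type.

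**Figure D3:**
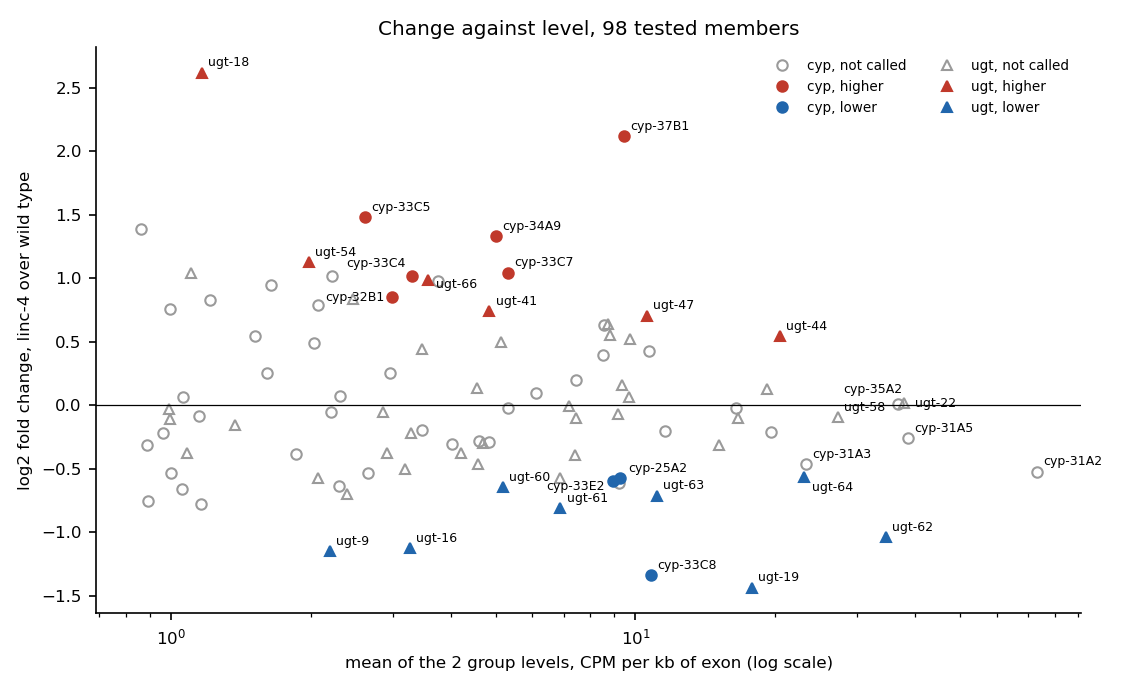
Log2 fold change, linc-4 over wild type, against the mean of both group levels in CPM per kb of exon (log scale) for the 98 tested members. Called cytochrome P450 genes that rose lie between 2.62 and 9.44 CPM per kb, and those that fell between 8.95 and 10.8. Called UDP-glycosyltransferase genes that rose lie between 1.16 and 20.5 CPM per kb, and those that fell between 2.20 and 34.7, the last being ugt-62.

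Among the cytochrome P450 genes, cyp-37B1 showed the strongest change. It is a member of the branch related to vertebrate CYP4 enzymes, many of which oxidise fatty acids, and it lies on chromosome V from 16278191 to 16280612 (WBcel235). Its level was 31.9, 27.3 and 21.2 CPM in linc-4 1 to 3, against 6.17, 5.33 and 6.49 CPM in wild type 1 to 3. Every linc-4 library was more than 3 times the highest wild type library, and the log2 fold change was 2.12 (SE 0.23, adjusted p = 8.1e-05). Part of the gene's end overlaps an exon of F28G4.2 on the other strand, and the sources used here do not state how the counting treated strand. F28G4.2 itself had 12, 5 and 13 reads in linc-4 and 6, 3 and 5 reads in wild type, and cyp-37B1 had 249, 184 and 278 reads in linc-4. These counts do not show how many reads of the overlap were counted for cyp-37B1, and its part was not tested.

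The DAF-16-regulated gene cyp-34A9, also called dod-16, lies on V from 3968134 to 3970514. Its level was 12.5, 9.80 and 14.4 CPM in linc-4, against 4.89, 5.48 and 4.15 CPM in wild type, without overlap. The log2 fold change was 1.33 (SE 0.24, adjusted p = 0.0030). An exon of B0213.24, annotated as a small nuclear RNA, overlaps it on the other strand. By contrast cyp-35B1, or dod-13, another gene regulated by DAF-16 and 27 kb away in the same row of genes, was not called, with 3.20, 3.71 and 2.28 CPM in linc-4 and 1.29, 1.98 and 2.53 CPM in wild type (log2 fold change 0.54, 95% interval -0.20 to 1.28, adjusted p = 0.28).

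The cyp-33C genes moved in both directions. The subfamily has 11 members, of which 6 were tested, 3 rose and 1 fell; its summed level overlapped between groups, with 44.9, 42.8 and 49.5 CPM in linc-4 and 40.4, 53.7 and 58.1 CPM in wild type. The gene cyp-33C5, on V from 2245015 to 2247015, had 6.15, 5.35 and 6.78 CPM in linc-4, against 1.54, 2.13 and 2.71 CPM in wild type (log2 fold change 1.48, SE 0.29, adjusted p = 0.0050). Nearby cyp-33C7 had 10.8, 10.2 and 12.3 CPM in linc-4 and 4.11, 8.07 and 4.15 CPM in wild type (1.04, SE 0.26, adjusted p = 0.017). In cyp-33C4 the levels were 6.40, 6.24 and 8.45 CPM in linc-4 and 2.57, 4.87 and 2.89 CPM in wild type (1.02, SE 0.28, adjusted p = 0.027). In both of these genes wild type replicate 2 was the highest wild type library, yet below every linc-4 library. The call of cyp-33C7 was lost without wild type replicate 1 or 3 (highest adjusted p 0.076), and that of cyp-33C4 without linc-4 replicate 2 or 3 or wild type replicate 1 or 3 (highest 0.10).

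Against these 3, cyp-33C8, on V from 3800782 to 3803531, fell to 9.48, 10.7 and 10.1 CPM in linc-4, against 18.5, 25.6 and 33.6 CPM in wild type. The linc-4 libraries were close together and the wild type libraries were spread, without overlap, and the log2 fold change was -1.34 (SE 0.21, adjusted p = 0.0015). In wild type it was the highest of the tested cyp-33C genes, at 15.5 CPM per kb.

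The remaining 3 called cytochrome P450 genes changed less. On V from 2198059 to 2201415, cyp-32B1 had 6.02, 7.43 and 5.71 CPM in linc-4 and 3.86, 3.81 and 2.71 CPM in wild type (log2 fold change 0.85, SE 0.26, adjusted p = 0.036). A gene that takes part in making eicosanoids, signalling molecules derived from long-chain fatty acids, cyp-33E2 (IV, 8612363 to 8614683) fell to 13.96, 12.5 and 10.7 CPM in linc-4, against 18.3, 15.4 and 22.7 CPM in wild type (-0.60, SE 0.20, adjusted p = 0.049). A second gene of eicosanoid formation, cyp-29A3, had 4.61, 4.16 and 2.89 CPM in linc-4 and 5.66, 5.02 and 5.41 CPM in wild type, and was not called (-0.53, 95% interval -1.09 to 0.02, adjusted p = 0.16). On III from 3835221 to 3837211, cyp-25A2 fell to 10.9, 12.5 and 11.5 CPM in linc-4, against 19.03, 19.3 and 14.1 CPM in wild type (-0.58, SE 0.19, adjusted p = 0.046). All 3 calls lay close to the threshold. That of cyp-32B1 was lost without linc-4 replicate 1 or 2 or wild type replicate 1 or 3 (highest adjusted p 0.14). That of cyp-33E2 was lost without any library but wild type replicate 2 (highest 0.17), and that of cyp-25A2 without any library but wild type replicate 3 (highest 0.14).

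**Figure D4:**
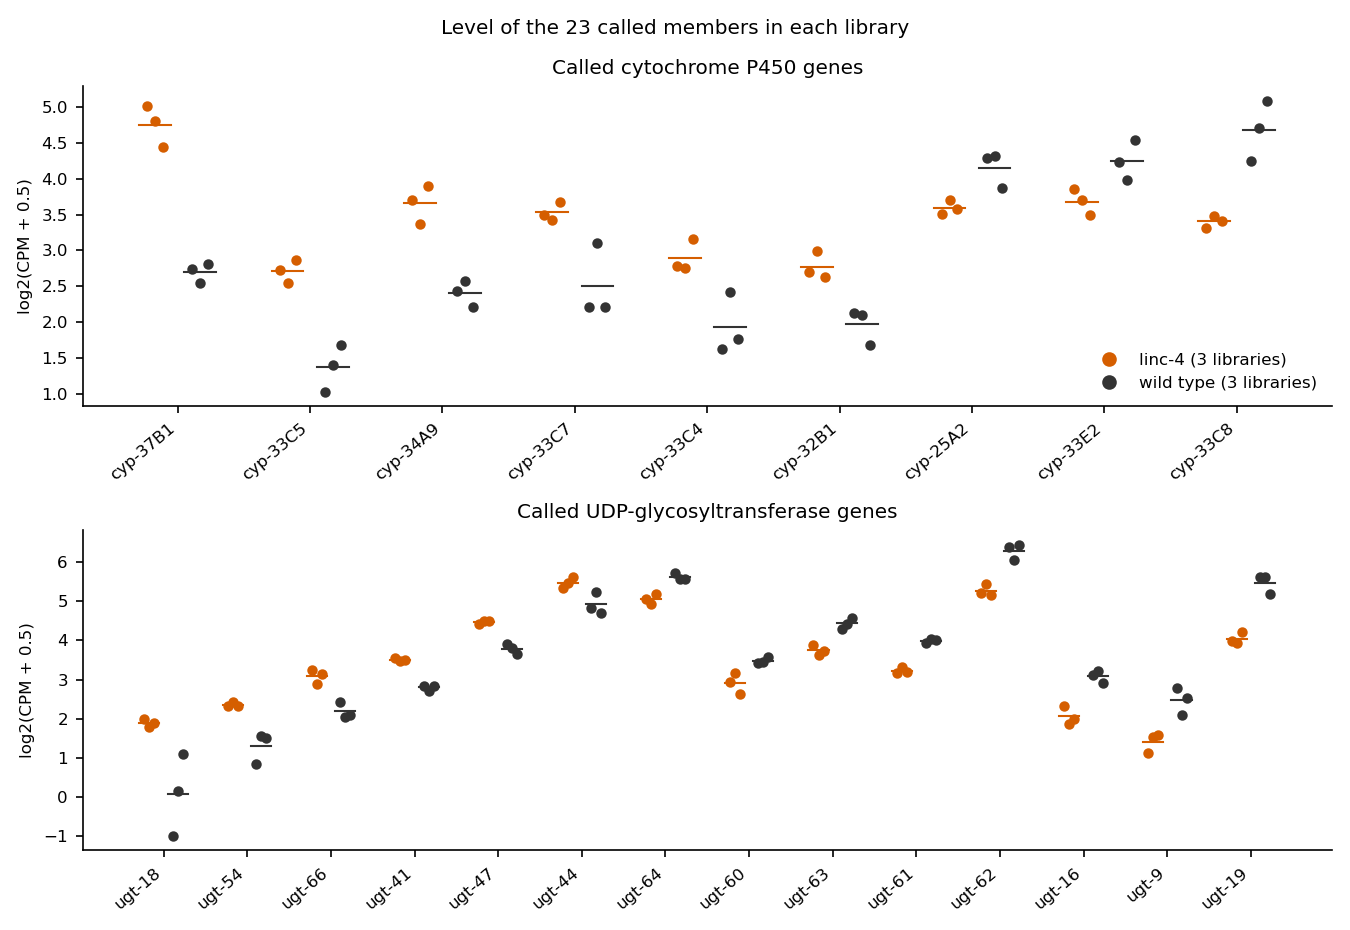
Level of each of the 9 called cytochrome P450 and 14 called UDP-glycosyltransferase genes as log2(CPM + 0.5); points are libraries, with linc-4 left of wild type, and short lines are group means. In each of the 23 genes the 3 linc-4 libraries lie wholly above or wholly below the 3 wild type libraries. The genes were called on these same libraries, which favours such a separation.

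The 5 cytochrome P450 genes with the highest wild type level per kb gave no call. The near-identical pair cyp-31A2 and cyp-31A3 is needed, together with the reductase gene emb-8, for the lipid layer of the eggshell. Reads shared by such copies could be counted for either or for neither, so their values are uncertain. cyp-31A2 (IV, 11403961 to 11406066) had 124, 92.7 and 74.3 CPM in linc-4, against 132, 100 and 192 CPM in wild type. Its groups overlapped, with a log2 fold change of -0.52 (95% interval -1.02 to -0.03, adjusted p = 0.12). cyp-31A3 had 23.8, 30.3 and 40.1 CPM in linc-4 and 42.7, 47.95 and 38.2 CPM in wild type (-0.47, interval -0.88 to -0.05, adjusted p = 0.11). Both passed in 1 fit with a library left out, cyp-31A2 without wild type replicate 2 (-0.77, adjusted p = 0.019) and cyp-31A3 without linc-4 replicate 3 (-0.68, adjusted p = 0.029). Their relative cyp-31A5 had 51.3, 46.3 and 49.5 CPM in linc-4 and 60.9, 53.7 and 62.4 CPM in wild type (-0.26, adjusted p = 0.20).

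Together the 3 cyp-31A genes summed to 200, 169 and 164 CPM in linc-4, against 236, 202 and 293 CPM in wild type. These sums did not overlap, though linc-4 replicate 1 and wild type replicate 2 were close, and with upper-quartile scaling they overlapped, at 170 to 209 CPM in linc-4 and 191 to 287 CPM in wild type. The oocyte and eggshell markers moved in the same direction, with a median log2 fold change of -0.68 over 14 tested genes, and their part in the cyp-31A levels was not tested. emb-8 itself was not called, at 36.1, 38.8 and 34.4 CPM in linc-4 and 46.3, 39.9 and 42.03 CPM in wild type (-0.23, adjusted p = 0.28).

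The well-known xenobiotic-responsive gene cyp-35A2, whose family also bears on fat storage, had 55.7, 60.3 and 59.8 CPM in linc-4 and 55.8, 61.5 and 56.8 CPM in wild type. Its log2 fold change was 0.01, with a 95% interval of -0.28 to 0.31 (adjusted p = 0.96). Its relative cyp-35A3 gave -0.20 (-0.73 to 0.34), and cyp-14A1 gave -0.06 (-0.63 to 0.51). The only mitochondrial-type gene, cyp-44A1, averaged 28.2 ± 1.88 CPM in linc-4 and 32.7 ± 4.55 CPM in wild type (SD, n = 3 each), with a log2 fold change of -0.21 (-0.56 to 0.13). cyp-36A1, which acts downstream of the oxygen-sensing HIF-1 pathway in the control of egg laying, gave 0.06 with a wide interval (-0.81 to 0.93) at a mean of 1.99 CPM in linc-4 and 1.73 CPM in wild type. cyp-13A12, active downstream of HIF-1 in the behavioural response to reoxygenation, had too few reads for the test, 18 in linc-4 and 27 in wild type. Scaled for library size its groups did not overlap, at 0.77, 0.45 and 0.69 CPM in linc-4 and 1.80, 1.83 and 1.44 CPM in wild type.

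By branch, the 26 tested genes of the type that includes vertebrate CYP2 enzymes (names from cyp-14, cyp-23, cyp-33, cyp-34, cyp-35 and cyp-36) held 4 rises and 2 falls. The 14 of the CYP3-like type (cyp-13, cyp-25 and cyp-43) held no rise and 1 fall, and the 10 of the CYP4-like type (cyp-29, cyp-31, cyp-32, cyp-37 and cyp-42) held 2 rises and no fall. Median log2 fold changes were -0.0044, 0.025 and 0.14 in these branches. The shares called were 23.1% of 26, 7.14% of 14 and 2 genes of 10, beside 18.7% of all tested genes. Assignment to branches followed the gene names, and no branch was tested against the whole table.

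Of the UDP-glycosyltransferase genes 8 fell in linc-4. The strongest fall was that of ugt-19 (IV, 6076692 to 6079945), with 15.5, 14.7 and 17.97 CPM in linc-4, against 48.6, 48.6 and 35.7 CPM in wild type. Its highest linc-4 library lay far below its lowest wild type library, and the log2 fold change was -1.44 (SE 0.18, adjusted p = 0.00022). Per kb the most abundant member in wild type, ugt-62 (III, 4537277 to 4540644), had 36.9, 42.8 and 35.4 CPM in linc-4, against 83.3, 66.7 and 86.8 CPM in wild type (-1.04, SE 0.16, adjusted p = 0.00094).

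Among those at lower levels, ugt-16 (V, 12825024 to 12827432) had 4.48, 3.12 and 3.50 CPM in linc-4 and 8.23, 8.83 and 7.04 CPM in wild type (log2 fold change -1.13, SE 0.23, adjusted p = 0.0067). The level of ugt-9 (V, 4896028 to 4897969) was 1.66, 2.38 and 2.51 CPM in linc-4 and 6.43, 3.81 and 5.23 CPM in wild type (-1.15, SE 0.30, adjusted p = 0.019). For ugt-61 (V, 4742427 to 4745373) it was 8.45, 9.51 and 8.60 CPM in linc-4 and 14.9, 15.8 and 15.5 CPM in wild type (-0.81, SE 0.17, adjusted p = 0.0084). In ugt-61 the libraries of each group were close together, so that a fall to 8.85 ± 0.57 CPM in linc-4, against 15.4 ± 0.47 CPM in wild type (SD, n = 3 each), stood well clear of their spread. The call of ugt-9 was lost without linc-4 replicate 1 or 2 or wild type replicate 1 or 3 (highest adjusted p 0.067).

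Smaller falls were those of ugt-63, ugt-60 and ugt-64. The level of ugt-63 (V, 5108180 to 5110791) was 14.3, 11.9 and 12.8 CPM in linc-4 and 19.3, 21.0 and 23.5 CPM in wild type (log2 fold change -0.71, SE 0.17, adjusted p = 0.014). That of ugt-60 (III, 9676320 to 9679051) was 7.17, 8.47 and 5.71 CPM in linc-4 and 10.3, 10.5 and 11.4 CPM in wild type (-0.65, SE 0.21, adjusted p = 0.046). The more abundant ugt-64 (V, 3503130 to 3506352), whose exon overlaps C07G3.10 on the other strand, had 32.9, 29.9 and 35.9 CPM in linc-4 and 52.5, 47.3 and 46.7 CPM in wild type (-0.56, SE 0.15, adjusted p = 0.020). The call of ugt-60 was the weakest of all members, lost when any 1 of the 6 libraries was left out (highest adjusted p 0.18). That of ugt-64 was lost without linc-4 replicate 1 or 2 or wild type replicate 1 (highest 0.11), and that of ugt-63 without linc-4 replicate 2 or wild type replicate 3 (highest 0.071).

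Of the 6 UDP-glycosyltransferase genes that rose, ugt-18 (V, 12820265 to 12822758) had the largest fold change and the fewest reads. It had 27, 20 and 42 reads in linc-4 1 to 3, against 0, 4 and 9 reads in wild type 1 to 3. The log2 fold change was 2.62 (SE 0.60, adjusted p = 0.012), and it was 1.62 without wild type replicate 1 (adjusted p = 0.048) and 3.46 without wild type replicate 3. With limma-trend it was 1.38 (adjusted p = 0.0086), below the 1.97 of cyp-37B1 in that fit, and in the authors' deposited table it was 2.00. The ratio of summed reads, corrected for library size, was 3.96 (exact 95% binomial interval 2.20 to 7.72, counting error only).

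The next largest rises were those of ugt-54, ugt-66 and ugt-41. In ugt-54 (IV, 10761597 to 10764496) the level was 4.48, 4.90 and 4.49 CPM in linc-4 and 1.29, 2.44 and 2.35 CPM in wild type (log2 fold change 1.13, SE 0.30, adjusted p = 0.022). In ugt-66 (III, 6192116 to 6194580) it was 8.96, 6.83 and 8.30 CPM in linc-4 and 4.89, 3.65 and 3.79 CPM in wild type (0.99, SE 0.24, adjusted p = 0.015). In ugt-41 (V, 7161068 to 7163595) it was 11.3, 10.7 and 10.7 CPM in linc-4 and 6.69, 6.09 and 6.68 CPM in wild type (0.74, SE 0.19, adjusted p = 0.021). In all 3 genes even the lowest linc-4 library was above the highest wild type library. The call of ugt-54 was lost without linc-4 replicate 2 or wild type replicate 1 or 3 (highest adjusted p 0.076), that of ugt-66 without wild type replicate 3 (0.054), and that of ugt-41 without linc-4 replicate 1 or 2 or wild type replicate 1 or 3 (highest 0.066).

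The other 2 genes that rose did so by less. The level of ugt-47 (V, 10096305 to 10098597), which overlaps an exon of srd-49 on the other strand, was 20.9, 22.1 and 22.1 CPM in linc-4 and 14.7, 13.4 and 12.1 CPM in wild type (log2 fold change 0.70, SE 0.17, adjusted p = 0.014). That of ugt-44 (IV, 10469741 to 10471899) was 40.2, 43.7 and 48.5 CPM in linc-4 and 28.0, 37.4 and 25.6 CPM in wild type (0.55, SE 0.17, adjusted p = 0.043). The call of ugt-47 was lost without linc-4 replicate 2 or wild type replicate 3 (highest adjusted p 0.058), and that of ugt-44 without any library but wild type replicate 2 (highest 0.16).

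Of the 5 UDP-glycosyltransferase genes with the highest wild type level per kb, ugt-22 and ugt-58 were not called. For ugt-22 the level was 88.0, 94.0 and 71.5 CPM in linc-4 and 89.5, 67.3 and 95.1 CPM in wild type (log2 fold change 0.02, 95% interval -0.35 to 0.38). For ugt-58 it was 52.8, 44.6 and 39.3 CPM in linc-4 and 47.6, 43.7 and 53.6 CPM in wild type (-0.10, -0.44 to 0.25). In both genes the groups overlapped throughout.

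Members of each family lie in rows of neighbours, taken here as genes of 1 family whose starts are at most 20 kb apart. There were 11 such rows in each family, with 46 cytochrome P450 and 36 UDP-glycosyltransferase genes in them, and the longest held 11 and 7. In a row of 5 on V, from cyp-33C4 at 2236162 to cyp-33C7 at 2252553, all 3 tested genes rose, and the others, cyp-33C3 and cyp-33C6, had too few reads. In a row of 11 on V, from cyp-35A5 to cyp-34A10, 6 were tested and cyp-34A9 alone was called. Immediately beside it, 253 bp away, cyp-34A8 had a log2 fold change of -0.30 (95% interval -0.97 to 0.36). The 8 cyp-13A genes in a row on II held 6 tested and no call. The 4 cyp-25A genes in a row on III were all negative, between -0.58 and -0.02, with cyp-25A2 called.

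The only row with calls in both directions held ugt-18, ugt-16 and ugt-15 on V. There ugt-18 rose and ugt-16 fell, with 2265 bp between them. In the pair ugt-19 and ugt-20 on IV, 961 bp apart, ugt-19 fell while ugt-20 gave -0.05 (95% interval -0.69 to 0.58), with 5.38, 3.71 and 4.49 CPM in linc-4 and 5.91, 3.04 and 6.13 CPM in wild type. In a row of 7 on V from ugt-12 to ugt-13, all 4 tested genes were negative and ugt-9 was called.

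**Figure D5:**
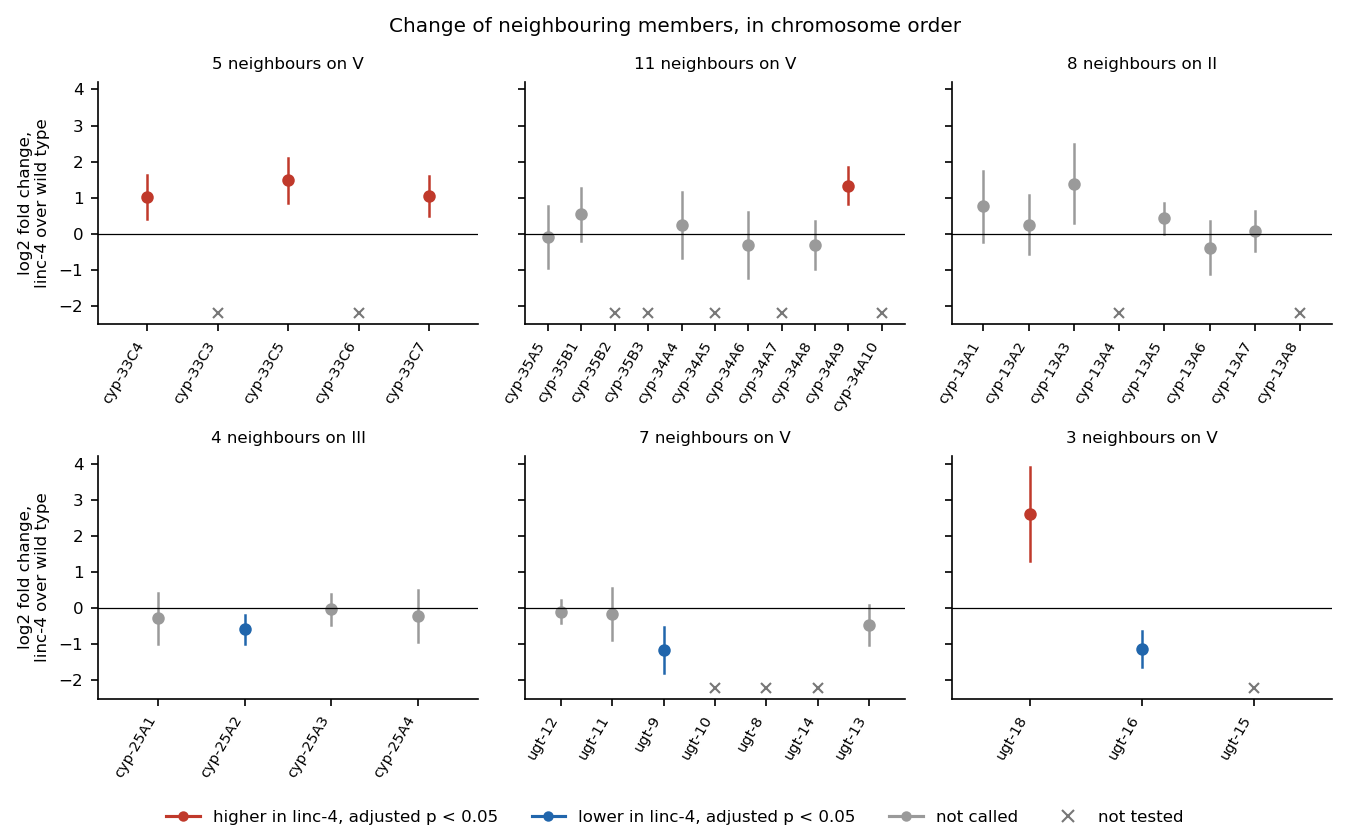
Log2 fold change, linc-4 over wild type, with 95% intervals for 6 rows of neighbouring members in chromosome order; crosses at the bottom mark members with too few reads to test. The 3 tested cyp-33C genes of the first row lie at 1.02, 1.48 and 1.04, and in the last row ugt-18 and ugt-16 lie on opposite sides of 0.

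Chromosome V held 42 of the 75 cytochrome P450 and 41 of the 66 UDP-glycosyltransferase genes. All 6 cytochrome P450 genes that rose were among the 25 tested on V, 24.0%, and none was among the 26 tested elsewhere. Of the cytochrome P450 genes that fell, 1 was on V and 2 were elsewhere. Over all tested protein-coding genes of V 15.6% rose and 7.40% fell, and over those elsewhere 10.7% rose and 7.24% fell. For the UDP-glycosyltransferase genes the calls were 3 higher and 5 lower of 24 on V, and 3 higher and 3 lower of 23 elsewhere. As shares these were 12.5% higher and 20.8% lower on V, and 13.04% higher and 13.04% lower elsewhere. Genes of other families near the called members were also counted, a step chosen after the values were seen. Within 50 kb of cyp-37B1, 6 of 10 other tested genes rose, and within 50 kb of cyp-34A9 4 of 7 rose. Around the cyp-33C row 1 of 19 rose, and around ugt-62 6 of 19 fell and 1 rose. Other members had neighbours that moved the opposite way: around cyp-33E2, which fell, 5 of 17 rose and 1 fell, and around ugt-19, which fell, 2 of 9 rose and 1 fell. For 9 of the 12 members that rose more neighbours rose than fell, for 1 more fell, and for 2 the numbers were equal. For 3 of the 11 members that fell more neighbours fell than rose, for 4 more rose, and for 4 the numbers were equal. These members are not independent, since some windows overlap: the same 1 rising gene was counted for cyp-33C4, cyp-33C5 and cyp-33C7. Rises also outnumber falls among all tested protein-coding genes, on V and elsewhere, which favours the tally of members that rose. Windows around other genes were not counted, so the tallies have no background to be read against.

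Of the 141 members, 24 cytochrome P450 and 19 UDP-glycosyltransferase genes had too few reads for the test. Only cyp-25A6 had none, and none of the others exceeded 59 reads over the 6 libraries. For 7 of the 42 with reads, 16.7%, the groups did not overlap. The same held for 12.6% of 5757 other protein-coding genes outside the test with 1 to 59 reads. At 10 to 59 reads the shares were 21.2% of 33 members and 17.2% of 3095 other genes. All 7 members are given here, the 4 with the largest ratios first, an order set after their values were seen. cyp-14A3 had 8, 9 and 27 reads in linc-4 and 1, 3 and 1 in wild type, a ratio of 5.09 after correction for library size (exact 95% binomial interval 2.02 to 16.4). cyp-34A10, next to cyp-34A9, had 6, 7 and 15 reads in linc-4 and 1, 1 and 0 in wild type, a ratio of 8.09 (2.04 to 70.1). ugt-36 had 5, 3 and 13 reads in linc-4 and 1, 0 and 1 in wild type, a ratio of 6.07 (1.48 to 53.4). cyp-13A8 had 1, 0 and 1 reads in linc-4 and 4, 7 and 6 in wild type, 14.7 times lower in linc-4 (3.49 to 131). These intervals cover counting error only. A limma-voom fit without the filter on low counts called 2192 of 21015 tested genes. There cyp-14A3 (adjusted p = 0.022), cyp-34A10 (0.015) and cyp-13A8 (0.0019) passed. In that fit ugt-36 (0.056), cyp-13A12 (0.055), cyp-35A4 (0.44) and ugt-8 (0.67) did not. The 7 members were picked for not overlapping in these same libraries, so the passes are no separate evidence. In the authors' deposited DESeq2 comparison cyp-13A8 passed (adjusted p = 0.026), while cyp-14A3 (0.077) and cyp-34A10 (0.11) did not.

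Among genes that work with or control these enzymes, 1 of 6 partners and 2 of 20 tested regulators were called, beside 18.7% of all tested genes, so that the regulators' share was below it and the partners' share near it. Of 6 partner genes, for the reductase and cytochrome b5 system and the supply of UDP-sugars, 1 fell: sqv-7, a transporter that brings UDP-sugars into the Golgi, at 54.3, 42.3 and 46.4 CPM in linc-4 and 64.3, 69.6 and 89.1 CPM in wild type (log2 fold change -0.64, SE 0.16, adjusted p = 0.019). The log2 fold change was negative for 5 of the 6 partners, with a median of -0.15. Their summed level was 689 to 767 CPM in linc-4 libraries and 783 to 808 CPM in wild type libraries, without overlap, but with upper-quartile scaling it overlapped, at 715 to 805 CPM in linc-4 and 754 to 792 CPM in wild type. Of 20 tested regulators of detoxification genes 1 rose and 1 fell. The zinc finger factor gene pqm-1, which acts opposite to DAF-16 in the control of many stress genes, rose to 25.7, 31.5 and 24.5 CPM in linc-4, against 17.2, 13.9 and 12.6 CPM in wild type (0.91, SE 0.18, adjusted p = 0.0060). The Nrf-type factor gene skn-1, an activator of conjugation enzymes, fell to 40.8, 41.9 and 47.1 CPM in linc-4, against 62.7, 61.7 and 71.1 CPM in wild type (-0.59, SE 0.14, adjusted p = 0.015). daf-9, a cytochrome P450 gene of steroid hormone synthesis that has no cyp name, had 8, 18 and 29 reads in linc-4 and 8, 11 and 4 in wild type and was not called (0.42, 95% interval -0.57 to 1.41).

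Other detoxification families were counted in the same way, to be read beside the 18.7% of all tested genes that were called. Among 5 flavin monooxygenase genes 2 rose, fmo-2 and fmo-1, among 34 tested glutathione S-transferase genes 2 rose, gst-22 and gst-5, and none fell in either family; 2 of 5 is above the share of the whole table, and 2 of 34, 5.88%, is below it. Among 11 tested ABC exporter genes of the pgp type pgp-14 rose and pgp-9 fell, 18.2%, and among 8 of the mrp type none was called at adjusted p under 0.05. Of these 8 genes 2 had an unadjusted limma-voom p under 0.05, as did 4750 of all 13778 tested genes. The called genes of these families are named because they are so few, after their values were seen. The largest of these changes was that of fmo-2, a target of HIF-1, at 46.2, 45.5 and 49.8 CPM in linc-4, against 6.69, 11.7 and 10.1 CPM in wild type (log2 fold change 2.30, SE 0.20, adjusted p = 1.3e-05). The sulfotransferase gene ssu-1 had too few reads for the test.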

How the data were processed

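Per gene, the authors deposited raw counts of 6 libraries and their own comparison (log2 fold change, standard error and adjusted p-value). The submitters' processing notes name cutadapt 2.10, TopHat2 2.1.1, HTSeq 0.12.4, DESeq2 1.22.2 and the build WBcel235. The sources used here do not state the strandedness of counting or the handling of shared reads. Of 46904 entries 22389 carry a count and 24515 a question mark, taken as no value; 6 other per-sample columns were not used. The question marks kept these columns from being registered as counts, so count models were not admitted and limma-voom was used (limma 3.58.1, R 4.3.3).

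The filter asked for the CPM of 10 reads in a library of median size, reached in 3 libraries, and for a total of 15 reads; 13778 genes passed, with 99.7% to 99.8% of reads. Libraries were scaled by the TMM method (trimming 30% of log ratios and 5% of abundances), p-values were two-sided and adjusted by Benjamini-Hochberg over these genes, and no minimum fold was set. A floor of 3 reads stands for 0.228 to 0.446 CPM in linc-4 and 0.457 to 0.771 CPM in wild type libraries. Library pairs of 1 group differed beyond counting noise (chi-square per degree of freedom 4.91 to 19.5). Positions are those of the table, exons those of Ensembl release 115 of the same build. The fit was tested on simulated data. The 6 cyp or ugt entries of another gene type were left out.

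Members and gene lists were chosen with earlier results of these data known. Named were up to 10 highest and 10 lowest called members per family, the 5 highest per kb in wild type, members with a role, and called partners and regulators. Alternatives were other scalings, other filters, limma-trend, a replicate block, a minimum fold, leaving out each library, members without exon overlap, and the authors' comparison.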

Additional observations from a re-analysis of the deposited data

How the results depend on the processing

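The count of cytochrome P450 genes called, 9, was 9 or 10 under other scalings, filters and limma-trend, 6 with the replicate block (5 higher, 1 lower), and ran from 5 to 12 when a library was left out. That of UDP-glycosyltransferase genes, 14, was 13 to 16, 10 with the replicate block (4 higher, 6 lower), and ran from 6 to 14. An absolute log2 fold change of at least 1 left 5 higher and 1 lower of 51 tested cytochrome P450 genes. It left 2 higher and 4 lower of 47 tested UDP-glycosyltransferase genes. Of all genes, 2580 called became 1714 with the replicate block and 894 with that minimum fold, and ran from 947 to 2848 when a library was left out. The median log2 fold change of the cytochrome P450 genes was 0.090 with upper-quartile scaling and -0.076 in the authors' deposited table, and ran from -0.068 to 0.048 when a library was left out; that of the UDP-glycosyltransferase genes was 0.013 with upper-quartile scaling and ran from -0.15 to -0.081. The authors' deposited table calls 4 higher and 2 lower of 68 tested cytochrome P450 genes, 5 of them called here too. Of 63 tested UDP-glycosyltransferase genes it calls 3 higher and 7 lower, all 10 called here too. The share called over all genes of that table is not given here, so these counts have no background to be read against. No called member changed direction in any setting. Exons of 24 of the 75 cytochrome P450 and 14 of the 66 UDP-glycosyltransferase genes, tested or not, overlap another gene. Members without exon overlap held 7 and 12 calls. The part of that alternative on near-identical proteins was not run, since no protein sequences were used here. The labels do not say whether libraries with the same replicate number share a culture or batch. Deviations of same-numbered libraries correlated at 0.097, -0.11 and -0.41, and 1 library correlated best with its own number. So few values cannot show whether the numbers mark a pairing. The causes of the differences between settings were not tested. At these depths, the filter on low counts kept members with 59 or fewer reads in all out of the main fit.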
